A study of Mus musculus with 2 samples.

Results

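The Toll-like and NOD-like innate sensors were taken as the genes of the count table whose symbol begins with Tlr, Nlrp, Naip or Nod followed by a digit, together with 17 named genes of the same pathways: 4 other NOD-like or AIM2-like sensors, the adaptors and kinases below the receptors, and the inflammasome adaptor and caspases. This gave 47 of the 20003 genes listed. Messenger RNA had been sequenced in 2 mouse libraries whose labels give macrophages of RAW 264.7, a macrophage line from a virus-induced mouse leukaemia. In the library labelled M2+GANT61 the cells, per the labels, had received 10 µM GANT61, an inhibitor of GLI, the transcription factors at the end of Hedgehog signalling. In the library labelled M2+DMSO they had received its solvent, DMSO. The protocols give for either library growth in DMEM with 10% FBS, M-CSF at 20 ng/mL overnight and, 4 h after GANT61 or DMSO, IL-4 at 10 ng/mL, which drives alternative (M2) activation, so neither library shows cells without M-CSF or IL-4. The time with IL-4 is given as 15 min in the treatment text and as 24 h in the growth text. With 1 library per label a difference has no replicate check, so there are no tests or p-values here.

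Toll-like receptors are membrane proteins of macrophages and dendritic cells that bind microbial lipids, proteins or nucleic acids at the cell surface or inside endosomes. They signal through the adaptors MyD88 and TRIF and the IRAK kinases to NF-kappaB and interferon regulatory factors. NOD-like receptors sense bacterial products and damage in the cytosol, and some of them, with AIM2, assemble inflammasomes, in which the adaptor ASC recruits caspase-1 to cut the precursors of interleukin 1 beta and interleukin 18. In mouse macrophages several of these genes, such as Nlrp3, are themselves known as targets of the signals they start.

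Values are read counts, or CPM, counts brought to a common library total, after TMM scaling (a trimmed mean of log ratios) of the whole table. Ratios are the GANT61-labelled over the DMSO-labelled library, with a 95% exact binomial interval that covers counting error only. The words higher and lower follow a rule of size alone, namely a ratio of at least 1.5 or at most its inverse, an interval that excludes 1, and a mean level of at least 1 CPM. The libraries held 57705874 reads under the GANT61 label and 61632784 under the DMSO label, and 13939 genes reached the floor of 1 CPM.

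Of the 47 genes, 38 reached the floor, and of these 22 were higher, 0 were lower and 16 were neither. By the same rule, 14.1% of all genes at the floor were higher and 10.3% were lower. At a fold of 2, 11 of the 38 genes were higher and 0 lower, beside 6.97% and 4.27% of all genes. The median log2 ratio of the 38 genes was 0.67, beside -0.01 for all genes at the floor, and their log2 ratios ran between -0.37 and 2.29. Of the 16 genes that were neither, 9 had an interval wholly above 1, 4 wholly below 1 and 3 an interval that held 1. Nlrp12 was the only gene that reached the floor through the GANT61-labelled library alone, and the other 37 were over 1 CPM in each library. The summed level of all 47 genes was 1362 CPM in the GANT61-labelled library and 981 CPM in the DMSO-labelled library.

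**Figure D1:**
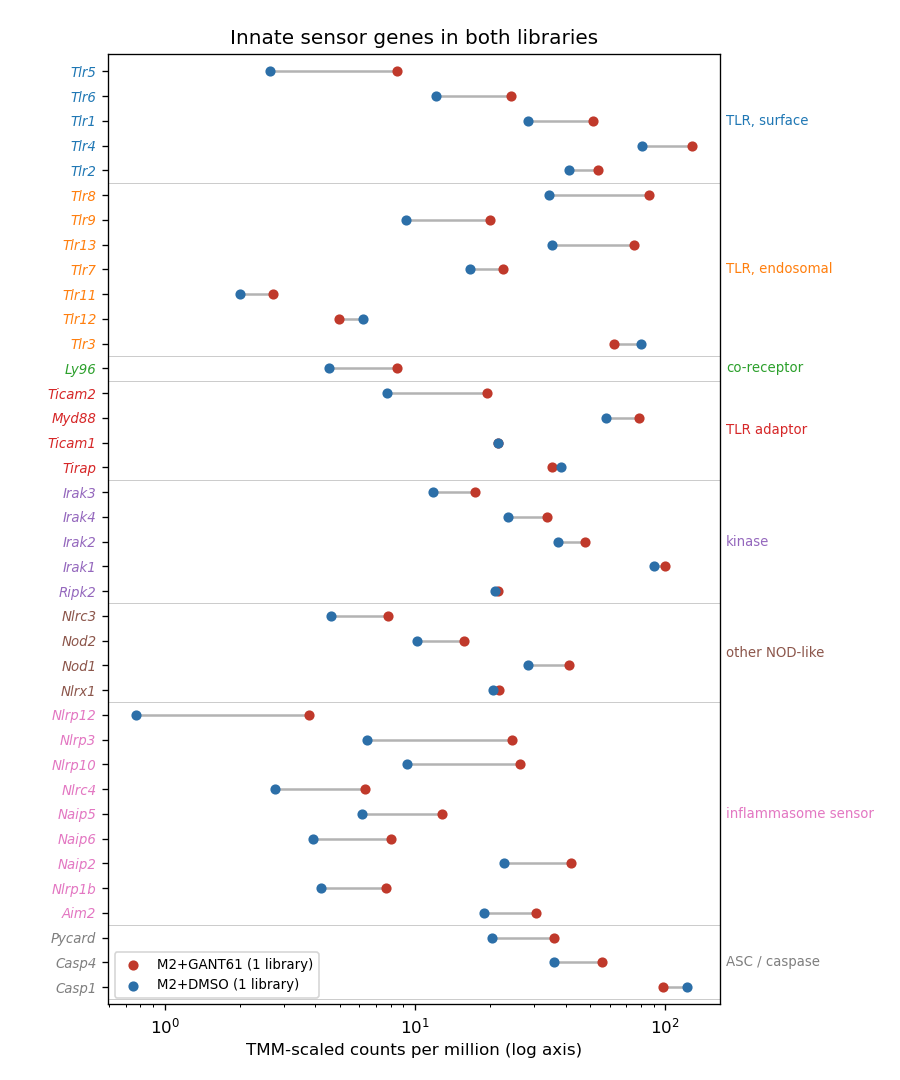
Levels of the 38 genes at the floor, in TMM-scaled CPM on a log axis, with the GANT61-labelled library in red and the DMSO-labelled library in blue, each point being 1 library and the genes grouped by role. The red point lies to the right for 34 genes, and the widest gap is that of Nlrp12, at 3.78 and 0.767 CPM.

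Most macrophage marker genes also had more reads in the GANT61-labelled library after scaling. Of 19 macrophage identity genes, 18 reached the floor, 16 were higher and 1 was lower, with a median log2 ratio of 1.10. The lower one was Cx3cr1, at a ratio of 0.508 (0.471 to 0.548). The summed level of the list was 8795 CPM in the GANT61-labelled library and 3933 CPM in the DMSO-labelled library. The lysosomal genes Lyz2 and Ctss, with the most reads of the list, had ratios of 2.10 and 2.22, and the scavenger receptor Marco was near 0 in this list, with 8 reads in the GANT61-labelled library and 15 in the DMSO-labelled library. Of the 38 sensor genes, 8 had a ratio above the macrophage median (Nlrp12, Nlrp3, Tlr5, Nlrp10, Ticam2, Tlr8, Nlrc4 and Tlr9) and 30 had a ratio at or below it. In a bulk library, more cells of a type and more RNA of a gene per cell cannot be told apart, and the part of macrophage content in these results was not tested.

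Markers of cells that a pure macrophage line would lack were present in either library. At least 10 CPM in each library was reached by 65 of 81 markers, taken from 8 lists of other cell types, and none was at 0 reads. Dendritic cell markers, which mark cells rich in several of these receptors, summed to 159 CPM in the GANT61-labelled library and 91.3 CPM in the DMSO-labelled library. Of the 9, 4 were higher (Cd209a, Ccr7, Siglech and Flt3) and 5 were neither, with a median log2 ratio of 0.38. Among these 5, Xcr1, Clec9a and Zbtb46 had ratios below 1, at 0.787, 0.805 and 0.989. Neutrophil and mast cell markers summed to 765 CPM in the GANT61-labelled library and 212 CPM in the DMSO-labelled library, with 3 of 12 higher and 1 lower. Most of the GANT61-labelled sum was from the 3 higher ones, Ltf, S100a9 and S100a8, at 403, 184 and 81.9 CPM. Ngp was lower, Ly6g, Elane and Mpo lay under the floor, and Retnlg and the mast cell genes Cpa3, Mcpt4, Tpsb2 and Cma1 were neither. B cell markers summed to 1358 CPM in the GANT61-labelled library and 348 CPM in the DMSO-labelled library, most of it the immunoglobulin joining chain Jchain, with 2 of 8 higher. Adipocyte markers summed to 986 CPM in the GANT61-labelled library and 6274 CPM in the DMSO-labelled library, with 10 of 10 lower. The sums of the fibroblast, T and natural killer cell, endothelial and epithelial lists had ratios between 0.841 and 1.06. Of 10 endothelial markers, 3 were lower (Tek, Cldn5 and Egfl7), or 30%, beside 10.3% of all genes, and 0 were higher. Their median log2 ratio was -0.40, and 9 of the 10 ratios lay below 1. The fibroblast list had 1 of 10 lower, the T and natural killer cell list 1 of 10 higher, and the epithelial list 1 of 12 higher and 1 lower. The most abundant of these markers by reads included Col3a1, a collagen of fibroblasts, at 3394 CPM in the GANT61-labelled library and 3044 CPM in the DMSO-labelled library, and the adipocyte enzyme Car3, at 294 CPM in the GANT61-labelled library and 2207 CPM in the DMSO-labelled library. These levels go against the label of a single macrophage line, and the libraries may not be from the cells or treatments that the labels name. Every ratio given here therefore compares the 2 libraries as labelled, and which cells the sensor transcripts came from was not tested.

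**Figure D2:**
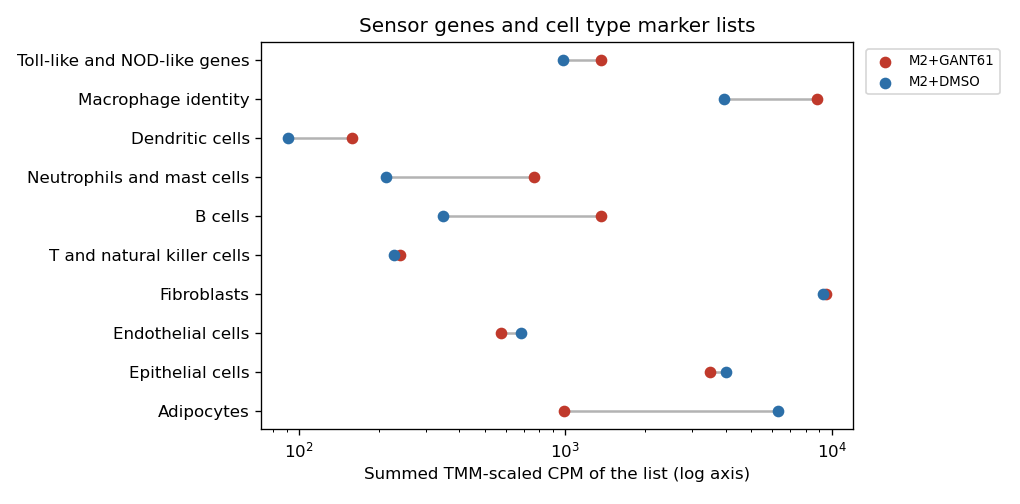
Summed TMM-scaled CPM on a log axis of the 47 sensor genes and of each cell type marker list, with the GANT61-labelled library in red and the DMSO-labelled library in blue. The macrophage list lies at 8795 and 3933 CPM and the adipocyte list at 986 and 6274 CPM.

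Of the 12 Toll-like receptor genes, 7 were higher in the GANT61-labelled library, 0 were lower and 5 were neither, with a median log2 ratio of 0.76. Their summed level was 539 CPM in the GANT61-labelled library and 349 CPM in the DMSO-labelled library. The receptors of the cell surface, which bind lipoproteins, lipopolysaccharide and flagellin, had 4 of 5 higher. The endosomal receptors, which bind nucleic acids or, for Tlr11 and Tlr12, protozoan profilin, had 3 of 7 higher, with Tlr3 and Tlr12 on the other side of 1.

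Among the surface receptors, the flagellin receptor Tlr5 had the largest ratio. It had 482 reads (8.48 CPM) in the GANT61-labelled library and 165 reads (2.64 CPM) in the DMSO-labelled library, a ratio of 3.21 (2.69 to 3.86). Tlr4, which recognises lipopolysaccharide, was at 128 CPM in the GANT61-labelled library and 80.9 CPM in the DMSO-labelled library. Its ratio of 1.58 (1.53 to 1.64) lay just inside the fold rule, which it no longer met once a trend of the ratio with gene length was removed. The co-receptor of Tlr4, Ly96 (MD-2), which holds the lipid, was at 8.48 CPM in the GANT61-labelled library and 4.52 CPM in the DMSO-labelled library, a ratio of 1.87 (1.62 to 2.18). Cd14, which hands lipopolysaccharide to them, had a ratio of 1.71 (1.65 to 1.77), and Lbp, the serum protein that delivers it to Cd14, had a ratio of 0.903 (0.868 to 0.938) and did not meet the rule. Both were chosen after their values were seen.

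Tlr2 pairs with Tlr1 or Tlr6 to bind bacterial lipoproteins, and these partners had larger ratios than Tlr2. Tlr1 was at 51.5 CPM in the GANT61-labelled library and 28.3 CPM in the DMSO-labelled library, a ratio of 1.82 (1.72 to 1.93). Tlr6 was at 24.1 CPM in the GANT61-labelled library and 12.1 CPM in the DMSO-labelled library, a ratio of 1.99 (1.82 to 2.18). Tlr2 itself was at 53.7 CPM in the GANT61-labelled library and 41.3 CPM in the DMSO-labelled library, a ratio of 1.30 (1.23 to 1.37) that did not meet the rule, and its interval lay wholly below those of its partners. Tlr1 (chromosome 5, 64924680 to 64933600) and Tlr6 (64953092 to 64970942) are neighbours on the minus strand, 19.5 kb apart in the RefSeq annotation of GRCm38, the assembly also called mm10. Of all stretches of 50 bases in the annotated Tlr1 and Tlr6 transcripts, 15.4% and 12.3% occurred in another gene, mostly in each other, so reads may have been split between them.

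The endosomal receptors spread more widely. Tlr8, a sensor of single-stranded RNA degradation products, had 4881 reads (85.9 CPM) in the GANT61-labelled library and 2145 reads (34.3 CPM) in the DMSO-labelled library, a ratio of 2.51 (2.38 to 2.64). Tlr9, the receptor for unmethylated CpG DNA, was at 19.9 CPM in the GANT61-labelled library and 9.19 CPM in the DMSO-labelled library, a ratio of 2.17 (1.96 to 2.40). Tlr13, which binds bacterial ribosomal RNA and is present in mouse but not in human, was at 74.9 CPM in the GANT61-labelled library and 35.3 CPM in the DMSO-labelled library, a ratio of 2.12 (2.02 to 2.24). The ratios of these 3 receptors all lay above 2.

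Tlr7, which also binds single-stranded RNA, stood apart from its neighbour Tlr8 on chromosome X, 39050 bases away. It was at 22.5 CPM in the GANT61-labelled library and 16.6 CPM in the DMSO-labelled library, a ratio of 1.36 (1.25 to 1.48), and the intervals of the pair did not overlap. Tlr3, the receptor for double-stranded RNA and the Toll-like receptor that signals through TRIF without MyD88, was at 62.2 CPM in the GANT61-labelled library and 80.2 CPM in the DMSO-labelled library. Its ratio was 0.775 (0.742 to 0.809), below 1 but short of the rule for lower. Tlr12 had 282 reads in the GANT61-labelled library and 388 in the DMSO-labelled library, a ratio of 0.801 (0.684 to 0.936), and Tlr11 had 154 reads in the GANT61-labelled library and 125 in the DMSO-labelled library, a ratio of 1.36 (1.06 to 1.73). Neither met the rule. Exons of Tlr3 share 381 bases with an annotated gene on the other strand, Gm45542.

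The make-up of the Toll-like receptor transcripts differed between the libraries. Per length, from the deposited RPKM values (reads scaled to gene length and library total), Tlr3 held 11.1% of the summed receptor level in the GANT61-labelled library and 22.1% in the DMSO-labelled library, where it ranked first. In the GANT61-labelled library Tlr3 ranked sixth and Tlr2 first, at 15.1% of the sum against 17.9% in the DMSO-labelled library. Tlr8 held 13.7% in the GANT61-labelled library and 8.39% in the DMSO-labelled library, and Tlr13 held 15.0% in the GANT61-labelled library and 10.9% in the DMSO-labelled library. Tlr4 held 13.1% in the GANT61-labelled library and 12.7% in the DMSO-labelled library. These shares do not depend on the scaling between the libraries.

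**Figure D3:**
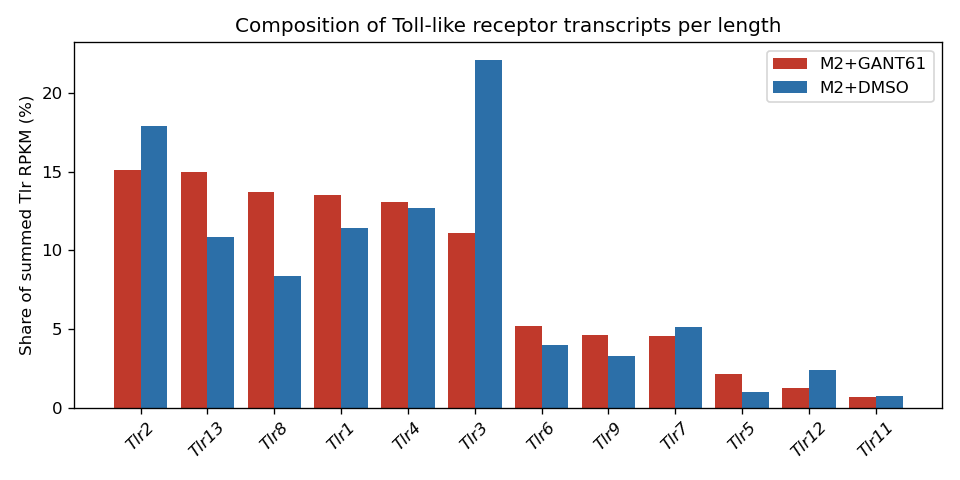
Share of the summed RPKM of the 12 Toll-like receptor genes held by each gene, in percent, with the GANT61-labelled library as the red bar and the DMSO-labelled library as the blue bar. Tlr3 differs most, at 11.1% and 22.1%, and Tlr8 is at 13.7% and 8.39%.

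Promoter sequences were read for motifs of factors tied to these genes: PU.1, the lineage factor of macrophages (GAGGAAG), NF-kappaB (GGG, any 2 bases, then TTTCC), the interferon-stimulated response element (ISRE: TTTC, any 2 bases, then TTTC again) and GLI (TGGGTGGTC), each on both strands of the 300 bases from 250 before to 50 after each RefSeq start (GRCm38.p6). Promoters were found for 39 of the 47 genes. The 8 without one include Tlr4, Nlrp10, Ly96 and Ticam2, which were called higher and are left out of the counts below. A gene counted as matched if any window of its annotated starts held the motif. The PU.1 motif was present for 7 of 18 genes called higher, or 38.9%, and for 2 of 14 genes at the floor that were not called, or 14.3%. It was also present for 2 of 7 genes under the floor, or 28.6%, which makes 11 of 39 genes, or 28.2%, in all. Among all genes with a promoter the share was 15.4%, among those at the floor 16.3% and among those called higher 21.3%. Spi1, the gene of PU.1 and a member of the macrophage identity list, had a ratio of 1.87 (1.80 to 1.94), below the median of that list. The part of PU.1 in the ratios of the sensor genes was not tested. The GLI motif was present for 0 of the 39 genes and for 0.289% of all genes with a promoter. The 0 says only that these letters were not in the windows of the 39 genes. A match of letters is not evidence of binding.

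A PU.1 match was found for 4 Toll-like receptor genes, of which Tlr1, Tlr9 and Tlr13 were called higher and Tlr11 was not. The 150 bases before the start of the 3 called higher are shown. Each stretch is from the first window of the gene that held a match, and that of Tlr1 overlaps the annotated span of the gene. The PU.1 letters, in capitals, begin 23 bases before the start in Tlr1, 112 in Tlr9 and 83 in Tlr13.
Tlr1, chr5:64933559-64933708, minus strand: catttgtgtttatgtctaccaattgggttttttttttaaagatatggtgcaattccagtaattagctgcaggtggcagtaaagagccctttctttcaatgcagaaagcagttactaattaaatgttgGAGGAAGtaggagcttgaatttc
Tlr9, chr9:106222448-106222597, plus strand: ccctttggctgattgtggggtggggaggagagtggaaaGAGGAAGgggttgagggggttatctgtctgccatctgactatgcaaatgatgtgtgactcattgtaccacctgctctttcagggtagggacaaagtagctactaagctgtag
Tlr13, chrX:106143125-106143274, plus strand: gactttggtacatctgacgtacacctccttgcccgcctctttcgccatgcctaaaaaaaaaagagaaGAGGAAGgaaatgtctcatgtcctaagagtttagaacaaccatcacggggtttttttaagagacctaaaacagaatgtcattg

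The adaptors and kinases below the receptors had a median log2 ratio of 0.36, beside 0.76 for the receptors, a difference that was not tested. Of 9 such genes, 1 was higher, 0 were lower and 8 were neither. The 11.1% that was higher lies near the 14.1% of all genes at the floor.

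Ticam2 (TRAM), which links Tlr4 in endosomes to TRIF, was the higher one. It had 1106 reads (19.5 CPM) in the GANT61-labelled library and 485 reads (7.75 CPM) in the DMSO-labelled library, a ratio of 2.51 (2.26 to 2.80). Its annotated exons share 838 bases with Tmed7 on the same strand, and 14.6% of its stretches of 50 bases occur in another gene, so its count is uncertain. Tmed7 had a ratio of 1.09 (1.06 to 1.12).

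The other adaptors stayed within the fold rule. Myd88, the adaptor of most Toll-like receptors, had 4469 reads in the GANT61-labelled library and 3632 in the DMSO-labelled library, a ratio of 1.36 (1.30 to 1.42). Ticam1 (TRIF), which carries the signals of Tlr3 and endosomal Tlr4, was at 21.5 CPM in the GANT61-labelled library and 21.4 CPM in the DMSO-labelled library, and the interval of its ratio was 0.928 to 1.09. Tirap (MAL), which brings MyD88 to surface receptors, was at 35.2 CPM in the GANT61-labelled library and 38.5 CPM in the DMSO-labelled library, a ratio of 0.914 (0.861 to 0.970). TRIF and its partner TRAM thus had ratios whose intervals did not overlap.

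Myd88 carried an ISRE match beginning 40 bases before its start, in capitals here, and is shown because the ISRE is the element of interferon-induced genes. Such a match was present for 3 of the 39 genes (Myd88, Tlr6 and Tlr11) and for 3.99% of all genes with a promoter. That was 1 of 18 genes called higher (Tlr6) and 2 of 14 at the floor that were not called (Myd88 and Tlr11).
Myd88, chr9:119340019-119340168, minus strand: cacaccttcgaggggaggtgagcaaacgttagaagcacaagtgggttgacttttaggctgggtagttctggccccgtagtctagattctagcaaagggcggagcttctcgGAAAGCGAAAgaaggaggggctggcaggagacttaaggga

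Kinases of the IRAK family relay the signal of MyD88. None of the 5 kinases met the rule for higher or lower, which 24.4% of all genes at the floor met. Irak1, per length the highest of them in each library, was at 99.6 CPM in the GANT61-labelled library and 90.0 CPM in the DMSO-labelled library, a ratio of 1.11 (1.07 to 1.15). Irak4, the kinase that starts the relay, had a ratio of 1.44 (1.34 to 1.54), and Irak2 of 1.28 (1.22 to 1.36). Irak3 (IRAK-M), which dampens the signal and lacks kinase activity, was at 17.4 CPM in the GANT61-labelled library and 11.8 CPM in the DMSO-labelled library, a ratio of 1.47 (1.33 to 1.61) just outside the rule. Ripk2, the kinase that NOD1 and NOD2 recruit, was at 21.4 CPM in the GANT61-labelled library and 20.9 CPM in the DMSO-labelled library, a ratio of 1.03 (0.948 to 1.11). Exons of Myd88, Irak3 and Irak4 overlap those of a gene on the other strand, Acaa1a, Tmbim4 and Twf1, by 290, 192 and 395 bases. Those of Irak2 share 196 bases with Gm43963 on the other strand. Those of Tirap share 446 with Gm39318 and 39 with Srpr, also on the other strand. The strand setting is not given in the sources used here.

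Among the NOD-like receptors that act outside inflammasomes, 2 of 4 were higher and 0 lower. Nlrc3, which restrains Toll-like receptor and STING signalling, had 443 reads in the GANT61-labelled library and 290 in the DMSO-labelled library, a ratio of 1.68 (1.45 to 1.96). The muramyl dipeptide sensor Nod2 was at 15.7 CPM in the GANT61-labelled library and 10.2 CPM in the DMSO-labelled library, a ratio of 1.53 (1.38 to 1.70) just inside the rule, which it no longer met with total-count scaling or with the length trend removed. Nod1, which senses diaminopimelic acid of bacterial cell walls, was at 41.4 CPM in the GANT61-labelled library and 28.3 CPM in the DMSO-labelled library, a ratio of 1.46 (1.37 to 1.55) just outside it. The intervals of Nod1 and Nod2 overlapped, so the rule separated genes that counting error does not. Nlrx1, a mitochondrial member of the family, had a ratio of 1.06 (0.978 to 1.15). Its exons share 683 bases with an annotated gene on the other strand, Gm10686.

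The inflammasome sensors had the highest median ratio of the role groups. Of 13 such genes, 9 reached the floor and all 9 were higher, with a median log2 ratio of 1.05, beside 1.10 for macrophage identity genes. Their summed level was 163 CPM in the GANT61-labelled library and 75.6 CPM in the DMSO-labelled library. Without Nlrp12, whose place at the floor rested on the GANT61-labelled library, the count was 8 of 8.

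Nlrp12 and Nlrp3 led this group. Nlrp12, an NLR of myeloid cells described as a brake on inflammation as well as a sensor, had 215 reads (3.78 CPM) in the GANT61-labelled library and 48 reads (0.767 CPM) in the DMSO-labelled library, a ratio of 4.89 (3.59 to 6.89). Nlrp3, the sensor of ion flux and damage whose expression is a priming step of its inflammasome, had 1385 reads (24.4 CPM) in the GANT61-labelled library and 401 reads (6.41 CPM) in the DMSO-labelled library, a ratio of 3.80 (3.40 to 4.26). Among all genes at the floor the ratio of Nlrp3 stood at the 98.3rd percentile and that of Nlrp12 at the 99.0th. The order of the pair depended on the processing. From RPKM values with 0.1 added, the log2 ratio of Nlrp12 was 1.72 in place of 2.29, below that of Nlrp3 at 1.85. Nlrp12 lies on chromosome 7 at 3218643 to 3249771 on the minus strand, and annotated exons of it overlap a cluster of microRNA hairpins, most of them on the other strand. Nlrp3 lies on chromosome 11 at 59541569 to 59566955 on the plus strand.

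Nlrp10, best known from keratinocytes of the skin and from dendritic cells, had the next largest ratio of the inflammasome sensors. It had 1497 reads (26.3 CPM) in the GANT61-labelled library and 583 reads (9.32 CPM) in the DMSO-labelled library, a ratio of 2.83 (2.57 to 3.12). Per length, Nlrp10 and Nlrp3 stood at 4.64 and 4.75 RPKM in the GANT61-labelled library, and at 1.65 and 1.25 RPKM in the DMSO-labelled library. Of the 12 epithelial markers 1 was higher, Krt5, a keratin of basal keratinocytes, at a ratio of 3.13 (3.04 to 3.22). Krt14, the other basal keratin of the list, had a ratio of 1.32 (1.30 to 1.35) and did not meet the rule, Krt18 was lower at 0.583 (0.575 to 0.591), and 8 of the 12 ratios lay below 1, with a median log2 ratio of -0.24. The part of epithelial cells in the Nlrp10 value was not tested.

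The genes of the NAIP and NLRC4 inflammasome, in which NAIP proteins bind flagellin or secretion system proteins and NLRC4 carries the signal, were higher together. Nlrc4 had 359 reads in the GANT61-labelled library and 173 in the DMSO-labelled library, a ratio of 2.28 (1.90 to 2.76). Naip2, which binds the rod protein of bacterial secretion systems, was at 42.1 CPM in the GANT61-labelled library and 22.6 CPM in the DMSO-labelled library, a ratio of 1.86 (1.74 to 1.99). Naip5 and Naip6, the flagellin sensors, had ratios of 2.07 (1.83 to 2.35) and 2.07 (1.77 to 2.42). Tlr5, the flagellin receptor of the surface, thus had the larger ratio beside these cytosolic sensors, and its interval did not overlap theirs. Naip2, Naip5 and Naip6 lie side by side on chromosome 13 between 100144063 and 100316616. Of their stretches of 50 bases, 19.1%, 36.8% and 21.5% occur in another gene, mostly other Naip copies, so their separate values are uncertain.

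Aim2, which binds double-stranded DNA in the cytosol, was the most abundant inflammasome sensor per length in either library, at 9.50 RPKM in the GANT61-labelled library and 5.93 RPKM in the DMSO-labelled library. Its ratio was 1.61 (1.49 to 1.73), the smallest of the 9. Nlrp1b, which senses the lethal factor protease of anthrax, had 437 reads in the GANT61-labelled library and 263 in the DMSO-labelled library, a ratio of 1.83 (1.57 to 2.14). The share of Naip2 in the summed RPKM of the 13 sensor genes was 21.6% in the GANT61-labelled library and 24.2% in the DMSO-labelled library, whereas that of Nlrp3 was 15.0% in the GANT61-labelled library and 8.22% in the DMSO-labelled library.

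A PU.1 match was also found for 5 inflammasome genes, namely Aim2, Nlrp1b, Nlrp3 and Pycard, which were called higher, and Nlrp1a, which lay under the floor. The 4 called higher are shown. Beyond the receptor and inflammasome genes, the motif was present for Ticam1, which was not called, and for Nlrp4c, which had 0 reads. Their stretches are not shown. The capitals mark PU.1 letters in either orientation, beginning 113 bases before the start in Aim2, 96 in Nlrp1b, 130 and 36 in Nlrp3 and 43 in Pycard. Each stretch is again from the first window of the gene that held a match. For Aim2, Nlrp1b and Nlrp3 the start used lies inside the annotated span of the gene, so it is not the outermost start.
Aim2, chr1:173420454-173420603, plus strand: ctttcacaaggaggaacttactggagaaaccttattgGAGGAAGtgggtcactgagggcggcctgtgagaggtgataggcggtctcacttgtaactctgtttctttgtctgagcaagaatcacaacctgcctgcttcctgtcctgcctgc
Nlrp1b, chr11:71230734-71230883, minus strand: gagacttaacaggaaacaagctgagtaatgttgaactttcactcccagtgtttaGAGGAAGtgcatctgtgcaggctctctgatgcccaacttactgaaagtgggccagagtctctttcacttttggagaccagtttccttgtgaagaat
Nlrp3, chr11:59542536-59542685, plus strand: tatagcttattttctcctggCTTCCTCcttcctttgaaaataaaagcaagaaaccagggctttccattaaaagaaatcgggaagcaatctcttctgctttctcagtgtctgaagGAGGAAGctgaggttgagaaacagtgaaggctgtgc
Pycard, chr7:127993868-127994017, minus strand: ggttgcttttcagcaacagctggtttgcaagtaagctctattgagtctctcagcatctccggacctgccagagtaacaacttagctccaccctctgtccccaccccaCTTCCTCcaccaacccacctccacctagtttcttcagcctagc

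The shared inflammasome parts did not move as a block. Pycard encodes ASC, the adaptor that RAW 264.7 cells are known to lack. It had 2039 reads (35.9 CPM) in the GANT61-labelled library and 1267 reads (20.2 CPM) in the DMSO-labelled library, a ratio of 1.77 (1.65 to 1.90). Per length it was at 13.3 RPKM in the GANT61-labelled library and 7.52 RPKM in the DMSO-labelled library, above 67.4% of the genes at the floor in the GANT61-labelled library and 51.2% in the DMSO-labelled library. Exons of Pycard share 485 bases with an annotated gene on the other strand, Gm45205. The transcript was thus present in libraries labelled as a line noted for its absence.

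Casp1 and Casp4 are neighbours on chromosome 9, 1.57 kb apart, and lay on opposite sides of 1. Casp1, the protease that matures interleukin 1 beta, was the most abundant of the 38 genes per length, at 51.1 RPKM in the GANT61-labelled library and 64.3 RPKM in the DMSO-labelled library. Its reads gave 97.9 CPM in the GANT61-labelled library and 123 CPM in the DMSO-labelled library, a ratio of 0.798 (0.771 to 0.826), short of the rule for lower. Casp4 (caspase-11), the cytosolic receptor for lipopolysaccharide, was at 56.2 CPM in the GANT61-labelled library and 36.1 CPM in the DMSO-labelled library, a ratio of 1.56 (1.47 to 1.64). In the mouse Casp4 is known as a gene induced by lipopolysaccharide and interferons, while Casp1 is largely constitutive. Whether this bears on the ratios of the pair was not tested.

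The stretch before the start of Casp4 is shown because it held a pair of matches to the NF-kappaB motif, in capitals, beginning 93 and 14 bases before the start. Such a match was present for 2 of the 39 genes, Casp4 and Tlr3, and for 1.89% of all genes with a promoter. That was 1 of 18 genes called higher (Casp4) and 1 of 14 at the floor that were not called (Tlr3, at a ratio of 0.775).
Casp4, chr9:5308699-5308848, plus strand: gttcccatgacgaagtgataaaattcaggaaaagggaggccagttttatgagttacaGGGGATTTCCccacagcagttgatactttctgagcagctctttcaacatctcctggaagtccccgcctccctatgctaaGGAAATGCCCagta

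**Figure D4:**
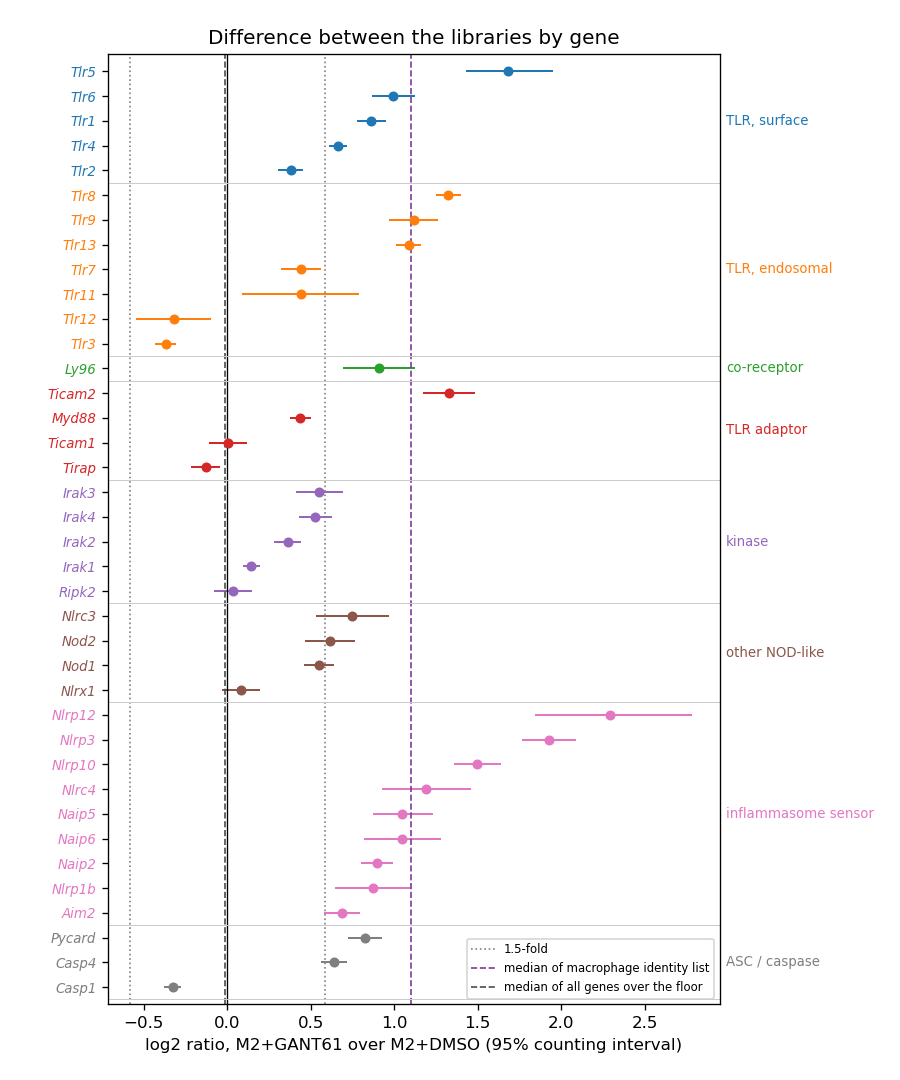
Log2 ratio of the GANT61-labelled over the DMSO-labelled library for the 38 genes at the floor, grouped by role, with 95% counting intervals as bars, dotted lines at 1.5-fold, and dashed lines at the medians of all genes (-0.01) and of macrophage identity genes (1.10). All 9 inflammasome sensors lie right of the upper dotted line, while the 5 kinases lie left of it.

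The remaining 9 genes lay below the floor. Naip1 had 39 reads in the GANT61-labelled library and 28 in the DMSO-labelled library. Naip7 had 6 reads in the GANT61-labelled library and 0 in the DMSO-labelled library, where a count of 0 allows up to 3 reads, or 0.0479 CPM. Nlrp1a had 6 reads in each library, and Nlrp6, a sensor of intestinal epithelium, had 2 reads in the GANT61-labelled library and 1 in the DMSO-labelled library. The Nlrp genes known mainly from egg cells and embryos, together with a pseudogene, were near or at 0. Nlrp4f, Nlrp5-ps and Nlrp9b had 2 to 17 reads in the GANT61-labelled library and 3 to 16 in the DMSO-labelled library, and Nlrp2 and Nlrp4c had 0 in each.

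**Figure D5:**
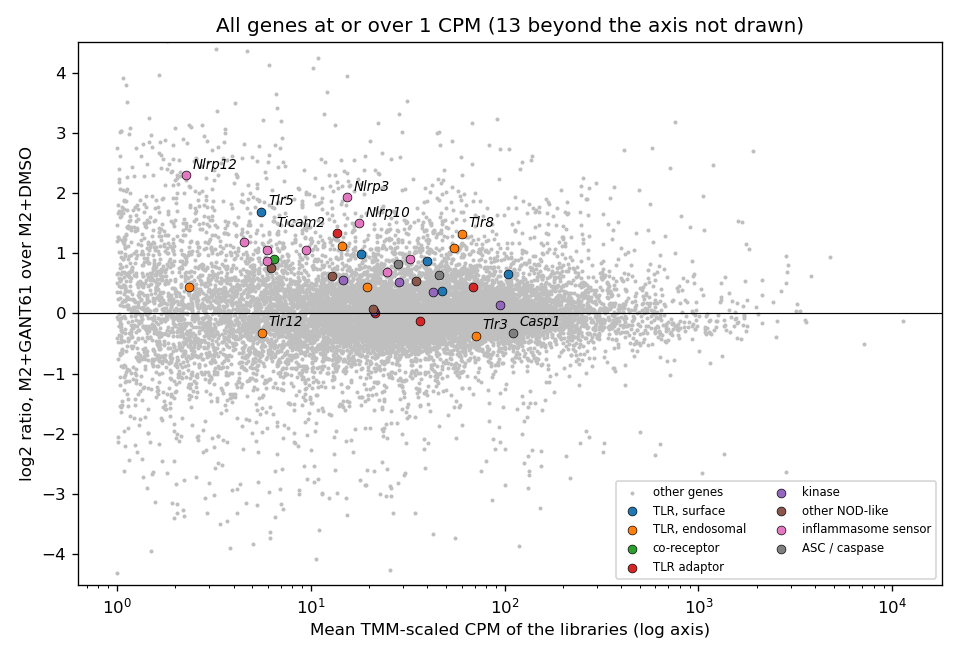
Log2 ratio of the GANT61-labelled over the DMSO-labelled library against the mean TMM-scaled CPM on a log axis for all 13939 genes at the floor, with the sensor genes coloured by role and 13 genes beyond the axis not drawn. Nlrp12, Nlrp3 and Tlr5 lie in the upper part of the cloud at 2.29, 1.93 and 1.68, and Tlr3, Casp1 and Tlr12 lie below 0.

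Other genes of these pathways were read from 4 lists. Of 13 accessory and trafficking genes of Toll-like receptors, 12 reached the floor, 5 were higher and 1 was lower, with a median log2 ratio of 0.41. Pik3ap1 (BCAP), which links the receptors to PI3-kinase, had a ratio of 2.07 (1.95 to 2.20), and Unc93b1, the chaperone that carries nucleic acid receptors to endosomes, was at 267 CPM in the GANT61-labelled library and 141 CPM in the DMSO-labelled library, a ratio of 1.90 (1.85 to 1.95). Rab7b, a GTPase that sends Tlr4 to lysosomes, had a ratio of 1.55 (1.40 to 1.73), which no longer met the rule with the length trend removed. Cd36, a partner of Tlr2 and Tlr6 that adipocytes also make, was lower at 0.226 (0.220 to 0.232), and the folding chaperone Hsp90b1, with the most reads of the list, had a ratio of 1.26 (1.25 to 1.27).

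Of 23 genes that act below MyD88, TRIF and RIPK2, 4 were higher and 0 lower, with a median log2 ratio of 0.20. Map3k8 (TPL2), the kinase that turns on ERK below the receptors, was at 18.7 CPM in the GANT61-labelled library and 7.62 CPM in the DMSO-labelled library, a ratio of 2.46 (2.20 to 2.74). Birc3, a ubiquitin ligase, had a ratio of 1.71 (1.64 to 1.78), Irf5, an inflammatory regulatory factor, of 1.63 (1.56 to 1.71), and Traf6, the ligase that IRAK kinases activate, of 1.51 (1.43 to 1.60). Traf6 no longer met the rule with total-count scaling, with RPKM values or with the length trend removed. Irf7, the interferon regulatory factor below endosomal receptors, had the most reads of the rest and a ratio of 0.756 (0.736 to 0.776). The 17.4% of this list that was higher lies near the 14.1% of all genes.

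Of 15 inflammasome effectors and regulators 5 were higher and 0 lower, and their median log2 ratio was 0.07. Il1b, the substrate of caspase-1, was at 234 CPM in the GANT61-labelled library and 39.9 CPM in the DMSO-labelled library, a ratio of 5.86 (5.61 to 6.12). Mefv, the sensor pyrin, was at 23.7 CPM in the GANT61-labelled library and 6.79 CPM in the DMSO-labelled library, a ratio of 3.49 (3.13 to 3.90). P2rx7, the ATP-gated channel upstream of NLRP3, had a ratio of 2.39 (2.24 to 2.55). Ninj1, which ruptures the membrane of dying cells, had a ratio of 1.80 (1.74 to 1.87), and the channel Panx1 of 1.56 (1.44 to 1.69). Txnip, a thioredoxin-binding protein described as an NLRP3 partner, was at 447 CPM in the GANT61-labelled library and 645 CPM in the DMSO-labelled library, a ratio of 0.693 (0.682 to 0.704) just short of the rule for lower.

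Other cytosolic nucleic acid sensors, among them the RIG-I-like receptors and the cGAS and STING pair, gave no call among 11 genes. Of all genes at the floor, 14.1% were higher and 10.3% lower. The 11 genes had a median log2 ratio of -0.04 and a range between -0.42 and 0.41. The helicase Dhx9, with the most reads, was at 215 CPM in the GANT61-labelled library and 227 CPM in the DMSO-labelled library. The summed level of these 11 genes was 1056 CPM in the GANT61-labelled library and 1112 CPM in the DMSO-labelled library, a ratio of 0.949, beside 2.15 for the summed inflammasome sensors.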

How the data were processed

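The authors deposited a gene table of estimated counts without normalization and another of RPKM values (1 column for either library). The treatment in a column's name tied it to its library, since its number differs from that in the title. Tools named in the submitters' processing notes are cutadapt, STAR, HISAT2, SAMtools and Partek, and the builds are hg19 and mm10; the counter, annotation and strand setting are not given in the sources used here. These deposited expected counts were rounded to whole numbers. All 20003 genes named a symbol and entered the scaling by TMM in edgeR 4.0.16 (R 4.3.3). Totals were 57705874 reads (GANT61-labelled) and 61632784 reads (DMSO-labelled). Ratios used a prior count of 0.5 per library, and Clopper-Pearson intervals at 95% came from scipy 1.17.1; without molecular identifiers reads can be copies, so these intervals, and the 3 reads that a count of 0 allows, cover counting error only. The rule of size compares these libraries, not the conditions. The intervals were checked on simulated counts that held counting error alone, so the check says nothing of other spread in these libraries. RPKM values, divided by the authors by gene length and library total, served for levels between genes. Lengths for the trend alternative were implied by counts and RPKM. Shared stretches of 50 bases and exon overlaps came from GENCODE M21 transcripts (GRCm38), promoters and coordinates from RefSeq GRCm38.p6 (coordinates for 46 genes). No motif match of these genes overlapped a match of another factor. The genes and lists were chosen with earlier results of these data known. Named were all genes at the floor, the called pathway genes with the 2 highest and 2 lowest ratios of each list (P2rx7 was added after its value was seen), its most abundant other gene, and the rest in groups. Tables and plots were made in Python 3.11.15 with numpy 2.4.6, pandas 2.3.3, matplotlib 3.10.9 and statsmodels 0.14.6. Alternatives were DESeq2 1.42.0 size factors, total-count scaling, unrounded counts, other priors, floors and folds, RPKM ratios and removal of a length trend.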

Additional observations from a re-analysis of the deposited data

How the results depend on the processing

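With a fold of 2 in place of 1.5, 11 of the 38 genes were higher and 0 lower, beside 6.97% higher and 4.27% lower of all genes. Under the other 8 alternatives between 20 and 23 genes were higher and 0 were lower. Nod2 no longer met the rule with total-count scaling, Nod2 and Tlr4 with the length trend removed, and Nlrc4 and Nlrp12 at a floor of 5 CPM. Without a floor Naip7 was added. With the length trend removed, Cpa3 and Mcpt4 were added to the higher neutrophil and mast cell markers, giving 5 in place of 3, and the endothelial Egfl7 was no longer lower. The median log2 ratio ran between 0.63 and 0.69 over the alternatives, and none of the called genes changed sign. No paired analysis was possible because each label has 1 library. Leaving out a library was not possible for the same reason, and replicate spread could not be measured. Counting intervals were widest for genes with few reads, such as Nlrp12 and Tlr11.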
